A study of Mus musculus with 6 samples.

Results

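The 9 genes Spi1, Irf8, Maf, Mef2a, Mef2c, Cebpa, Cebpb, Runx1 and Bhlhe41 encode transcription factors that set up and maintain the macrophage lineage. They were chosen by name, with earlier results of these data known, and each matched 1 of the 35598 gene identifiers in the deposited tables. All 9 passed the low-count filter that left 10661 genes for testing, and 7 of the 9 had a mean level of 50 CPM or more (CPM is a count scaled to the library's depth), as did 2189 of the genes tested. Cebpa and Cebpb lay below that level. RNA sequencing was done on border macrophages of the central nervous system (CAMs, the macrophages of the meninges, perivascular spaces and choroid plexus). They had been sorted from brains of male C57BL/6 mice as cells with CD11b, CD45 and CD206 and without CD3. The aged group held 3 libraries from mice of 18 months and the young group 3 libraries from mice of 2 months. The labels name no transgene or treatment for either group and do not say whether a library came from 1 animal or from a pool. P-values therefore rest on library-to-library spread, part of which may be technical.

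Macrophage identity is written by a small set of DNA-binding proteins that act together. PU.1, the product of Spi1, opens myeloid enhancers and turns on the CSF1 receptor gene. IRF8 binds beside it at joint ETS and interferon-response elements. C/EBP proteins and RUNX1 act early in the myeloid lineage and, for C/EBP beta, again in activated cells. MAF, MEF2 proteins and BHLHE41 belong to the programme of mature resident macrophages, with MEF2C prominent in microglia.

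The promoters of the 3 genes with a RefSeq promoter entry whose libraries did not overlap between ages in CPM are shown first, to give the DNA just before the genes whose levels separated. Each is given 5′ to 3′ on the gene's strand, in build GRCm38.p6, and holds only bases before the RefSeq start and outside annotated exons. Capitals mark motif matches.
Irf8, chr8:120736108-120736357, plus strand: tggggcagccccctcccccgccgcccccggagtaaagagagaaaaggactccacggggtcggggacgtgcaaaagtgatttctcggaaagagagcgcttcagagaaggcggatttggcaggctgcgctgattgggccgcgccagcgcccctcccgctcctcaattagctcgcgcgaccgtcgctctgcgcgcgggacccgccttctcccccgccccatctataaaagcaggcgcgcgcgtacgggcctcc
Bhlhe41, chr6:145865559-145865670, minus strand: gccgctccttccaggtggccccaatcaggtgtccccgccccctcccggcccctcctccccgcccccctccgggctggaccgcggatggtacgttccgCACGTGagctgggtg
Cebpb, chr2:167688665-167688914, plus strand: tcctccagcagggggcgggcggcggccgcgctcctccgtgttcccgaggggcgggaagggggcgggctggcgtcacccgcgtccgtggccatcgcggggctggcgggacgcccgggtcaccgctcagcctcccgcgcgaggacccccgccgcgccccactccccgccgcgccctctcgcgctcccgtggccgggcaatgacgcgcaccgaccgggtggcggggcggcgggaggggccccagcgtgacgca

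The RefSeq promoter table matched 7 of the 9 members, and those of Spi1 and Maf were not analysed here. Motifs were searched on both strands: the PU.1 core GAGGAA, the interferon response element (GAAA and GAAA with NN between them), the MEF2 box (CTA and TAG with NNNN between them), the C/EBP site TTGCNNAA, the RUNX site TGTGGT and the E-box CACGTG. The Bhlhe41 window of 112 bases held 1 E-box, the element that BHLHE41 itself binds, and 1.99% of the 32851 promoters hold one in a window of that length. The Irf8 and Cebpb promoters held none of these letters. Among the other entries, the Mef2a promoter held 2 PU.1 cores, the first of the Mef2c promoters 1, and the proximal Runx1 promoter 1, where 23.3% of promoters hold one. A match describes letters and not a bound site.

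The libraries held 26605079 to 33306121 counts each. CAM markers were detected in every library, with none of the 10 at 0, and so were the 10 microglia markers. Microglia are the macrophages inside brain tissue. The summed CAM markers were lower at 18 months (16425, 7699.7 and 13652 CPM in aged replicates 1 to 3, against 25023, 27258 and 23873 CPM in young libraries). The summed microglia markers were higher, at 8832, 16298 and 12971 CPM in aged libraries against 5596, 3928 and 6683 CPM in young ones. Singly, 5 of the 10 CAM markers were lower and 0 higher without overlap between the ages, and 8 of the 10 microglia markers were higher and 0 lower. Of genes at 50 CPM or more on average, 11.2% were higher and 8.45% lower in this way. The CAM markers Cd163, Folr2, Cbr2, F13a1 and Stab1 overlapped. Pf4 was the largest part of the CAM sum in every library, with 12729 of 25023 CPM in young replicate 1. Markers of other cell types were also found. Summed neutrophil markers ran from 25.8 CPM in aged replicate 3 to 37508 CPM in young replicate 1. Red cell markers ran from 85.8 CPM in aged replicate 3 to 30325 CPM in young replicate 3. Choroid plexus epithelium markers ran from 564 CPM in aged replicate 2 to 11808 CPM in young replicate 3. The part of these cells and of the CAM and microglia shifts in the results on the 9 genes was not tested. In bulk RNA, fewer cells of a type and less RNA per cell cannot be told apart.

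The question was whether the levels of these lineage factors differ between CAMs of old and young animals. Spi1 and Irf8 were higher in every aged library than in any young one, by 2.74-fold and 2.29-fold, and Cebpb was so by a narrow margin. Maf and Bhlhe41 were lower in every aged library than in any young one, Maf by 2.05-fold. Mef2a, Mef2c, Cebpa and Runx1 overlapped between ages. Thus 3 of 9 members did not overlap with aged higher, against 7.54% of all genes tested and 11.2% of those at 50 CPM or more on average. With aged lower there were 2 of 9, against 7.19% and 8.45%. Cebpb and Cebpa averaged under 50 CPM and so lie outside the set at 50 CPM or more.

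No member passed the test across all genes. By edgeR's quasi-likelihood test with Benjamini-Hochberg adjustment, 0 of 9 were called higher and 0 lower at an adjusted p under 0.05, where 0.00938% of the 10661 genes (1 gene) were called higher and 0% lower. At an unadjusted p under 0.05, 2 members (Spi1 and Irf8) lay above 0, where 3.63% of genes did, and 1 (Maf) lay below, where 2.04% did. In the 16 other settings, among them the DESeq2 Wald test and limma-voom, 0 members were called and 0 of the 9 fold changes turned round. The levels and folds that follow are therefore measured values and not calls.

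**Figure D1:**
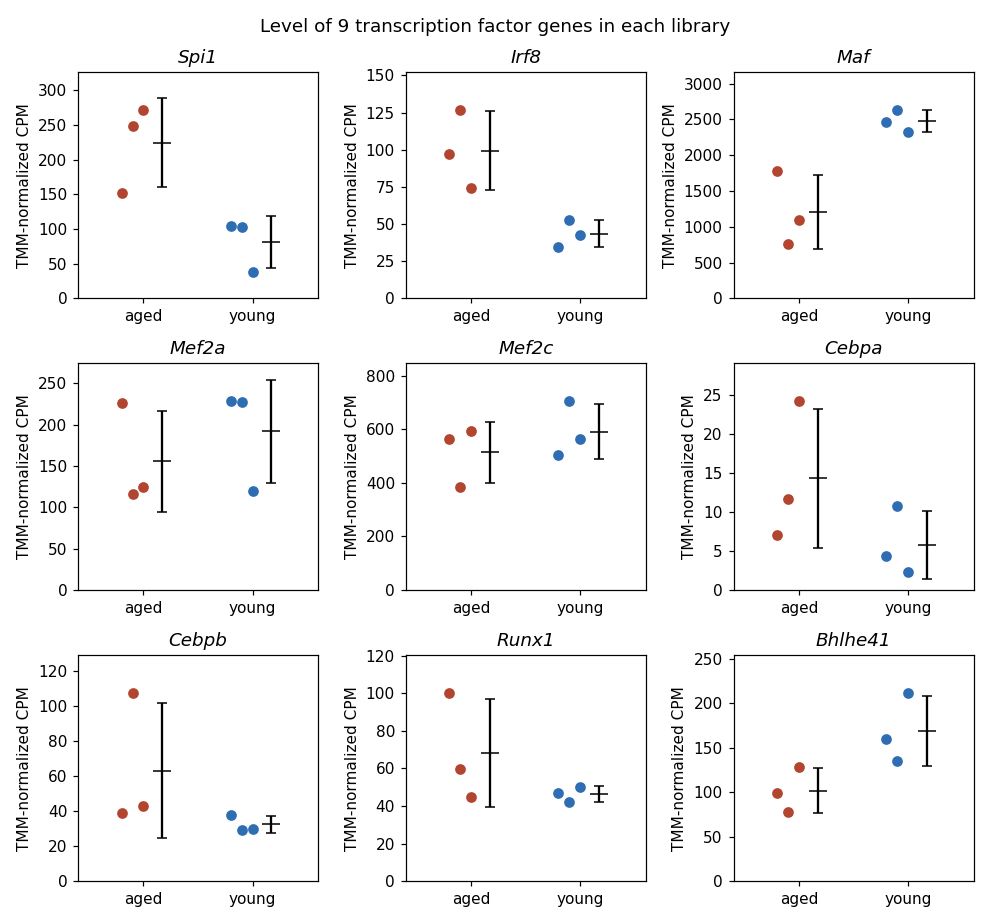
TMM-normalized CPM of each gene (vertical axes, from 0) in the 3 aged (18 months, left) and 3 young (2 months, right) libraries, 1 point per library in the order of replicates 1 to 3, with mean ± SD as bars. Spi1, Irf8 and Cebpb lie higher and Maf and Bhlhe41 lower in every aged library than in any young one, while the other 4 genes overlap.

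**Figure D2:**
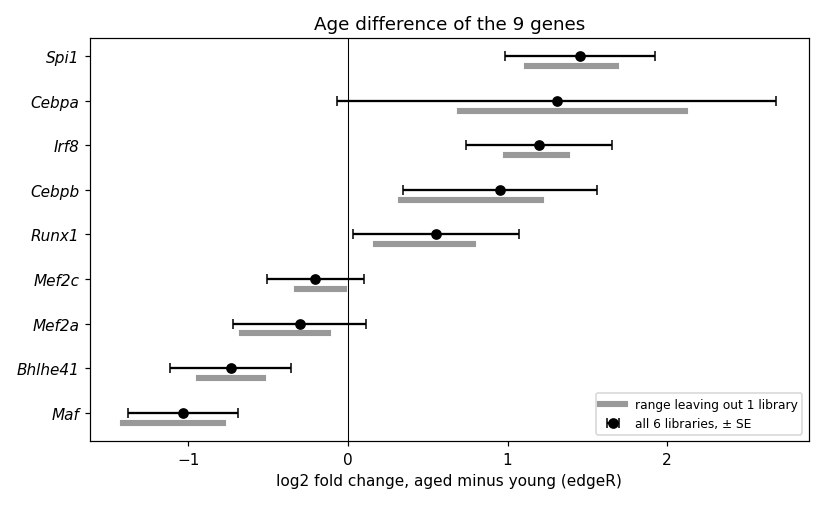
Log2 fold change, aged minus young, with its standard error (points and bars, edgeR, 3 against 3 libraries), and the range when 1 library is left out (grey bars). Spi1 stands at 1.46 and Maf at -1.03, and no grey bar crosses 0.

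Spi1 (mm10 chromosome 2, 91082390 to 91115756, plus strand) encodes PU.1. Its level was 152, 249 and 272 CPM in aged libraries, against 104, 103 and 38.5 CPM in young libraries. The lowest aged library stood above the highest young one, and young replicate 3 was low within its own group. The mean was 225 ± 63.9 CPM in aged and 81.9 ± 37.6 CPM in young libraries (SD, n = 3 each), a log2 fold change of 1.46 (SE 0.47, edgeR adjusted p = 0.673). Without young replicate 3 it was 1.12.

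Irf8 (mm10 chromosome 8, 120736358 to 120756694, plus strand), the interferon regulatory factor that partners PU.1, stood at 97.0, 127 and 74.4 CPM in aged libraries. In young libraries it was at 34.6, 52.8 and 42.7 CPM. The groups were separate, and aged replicate 2, which had the highest summed microglia markers, was also the highest for Irf8. In CPM, Spi1 was highest in aged replicate 3 instead. In TPM, which also corrects for transcript length, Spi1 was at 87.1, 238 and 194 in aged libraries. It was then highest in aged replicate 2, as Irf8 was. The part of the microglia shift in these values was not tested. The fitted fold of Irf8 was 2.29 (SE 0.46 on the log2 scale, edgeR adjusted p = 0.793), and its log2 value lay between 0.99 and 1.37 when single libraries were left out. The ratio of Irf8 to Spi1 within a library did not separate the ages. Its log2 value averaged -3.09 ± 0.75 in aged and -2.86 ± 0.53 in young libraries (SD, n = 3 each, two-sided exact permutation p = 0.6).

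Maf (mm10 chromosome 8, 115682942 to 115707794, minus strand) encodes c-MAF, a leucine zipper factor of mature macrophages that can drive the IL-10 gene. It was at 1780.4, 758 and 1089 CPM in aged libraries and at 2458, 2638 and 2331 CPM in young ones. The young libraries lay close together while the aged ones spread widely, with aged replicate 2 lowest. That library also had the lowest summed CAM markers and the highest summed microglia markers. The part of these marker shifts in the Maf values was not tested. Means were 1209 ± 522 CPM in aged and 2476 ± 154 CPM in young libraries (SD, n = 3 each), a log2 fold change of -1.03 (SE 0.35, edgeR adjusted p = 0.706). It was -0.78 without aged replicate 2 and -1.41 without aged replicate 1. In TPM, a level corrected for transcript length, Maf stood at 145, 99.6 and 104 in aged libraries and at 174, 202 and 180.5 in young ones, also without overlap.

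Both MEF2 genes overlapped between ages. MEF2 proteins are MADS-box activators, and MEF2C is a restraint on interferon responses in mouse microglia. Mef2c (mm10 chromosome 13, 83504034 to 83667080, plus strand) was at 562, 383 and 593 CPM in aged libraries and at 505, 705 and 562 CPM in young ones. Aged replicate 2 was the lowest of all 6, as it was for Maf. The log2 fold change was -0.20 (SE 0.30, edgeR adjusted p = 0.993). Mef2a (mm10 chromosome 7, 67231163 to 67372858, minus strand) was at 226, 116 and 124 CPM in aged libraries, against 228, 227 and 120.3 CPM in young ones. Each age held both high and low libraries, with a log2 fold change of -0.30 (SE 0.42, edgeR adjusted p = 0.993). The log2 ratio of Mef2a to Mef2c averaged -3.54 ± 0.37 in aged and -3.55 ± 0.80 in young libraries (SD, n = 3 each, two-sided exact permutation p = 1).

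The C/EBP genes were low and uneven. Cebpb (mm10 chromosome 2, 167688915 to 167690418, plus strand), which is induced in activated macrophages, stood at 38.9, 108 and 42.8 CPM in aged libraries and at 38.1, 29.5 and 30.1 CPM in young ones. Aged replicate 2 stood apart, and aged replicate 1 exceeded young replicate 1 only slightly. In TPM the groups overlapped, at 21.6, 66.8 and 20.9 in aged and 21.6, 15.5 and 16.4 in young libraries. The log2 fold change of 0.95 (SE 0.61, edgeR adjusted p = 0.958) was 0.33 without aged replicate 2. The gene span of Tmem189 on the opposite strand overlaps that of Cebpb, and the unstranded kit cannot separate any reads from shared bases. Tmem189 was at 20.0 CPM in aged and 8.87 CPM in young libraries. Overlap of exons was not examined. Neutrophils also express Cebpb. Their summed markers were at 21492, 7761 and 25.8 CPM in aged libraries and at 12013 to 37508 CPM in young ones, and their part in the Cebpb values was not tested.

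Cebpa (mm10 chromosome 7, 35119293 to 35121928, plus strand), which directs progenitors towards granulocytes and monocytes, was the lowest member in CPM and TPM. It was at 7.09, 11.7 and 24.2 CPM in aged libraries, from 204 to 686 counts, and at 4.35, 10.7 and 2.29 CPM in young ones, from 64 to 288 counts. The groups overlapped, and the log2 fold change of 1.31 had a standard error of 1.37 (edgeR adjusted p = 0.993). It was 0.70 without aged replicate 3 and 2.11 without young replicate 2. The log2 ratio of Cebpa to Cebpb averaged -2.91 ± 1.02 in aged and -3.10 ± 0.73 in young libraries (SD, n = 3 each, two-sided exact permutation p = 0.7).

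**Figure D3:**
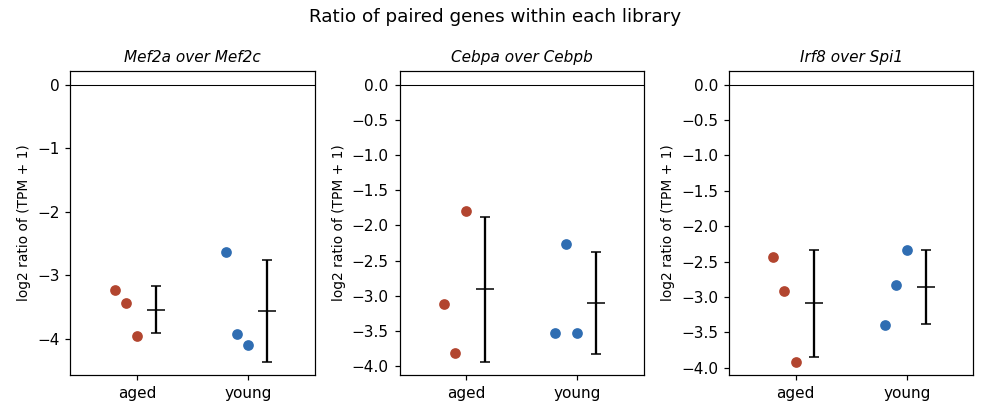
Log2 ratio of (TPM + 1) between paired genes (vertical axes) within each of the 3 aged (left) and 3 young (right) libraries, 1 point per library, with mean ± SD as bars. The ages overlap in all 3 ratios, which average -3.54, -2.91 and -3.09 in aged and -3.55, -3.10 and -2.86 in young libraries for Mef2a over Mef2c, Cebpa over Cebpb and Irf8 over Spi1.

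Runx1 (mm10 chromosome 16, 92601466 to 92826149, minus strand), the DNA-binding subunit of core-binding factor and a regulator of Spi1, was at 100.3, 59.6 and 44.9 CPM in aged libraries. In young libraries it was at 47.1, 42.2 and 50.3 CPM. Aged replicate 1 was high and the other aged libraries lay near the young ones. The log2 fold change was 0.55 (SE 0.52, edgeR adjusted p = 0.993), and 0.17 without aged replicate 1. In TPM another library was highest, with 7.68, 21.2 and 5.67 TPM in aged and 9.90, 6.27 and 4.35 TPM in young libraries.

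Bhlhe41 (mm10 chromosome 6, 145858243 to 145865558, minus strand), a repressor that binds E-boxes and damps the circadian clock, stood at 99.3, 77.5 and 128 CPM in aged libraries. In young libraries it stood at 159.8, 135 and 212 CPM. The groups did not overlap, with aged replicate 3 closest to the young libraries. Means were 102 ± 25.3 CPM in aged and 169 ± 39.2 CPM in young libraries (SD, n = 3 each), a log2 fold change of -0.73 (SE 0.38, edgeR adjusted p = 0.916). In TPM the groups were also separate, but by little, with the highest aged library at 9.82 TPM.

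Ranked by TPM, which corrects for transcript length, Mef2c came first at both ages, at 197 ± 22.9 TPM in aged and 229 ± 60.1 TPM in young libraries (SD, n = 3 each). In aged libraries it was followed by Spi1 (173 ± 77.7 TPM) and Maf (116 ± 25.2 TPM), and the ranges of neighbours in this order overlapped. In young libraries Maf followed (185 ± 14.7 TPM), with a range overlapping that of Mef2c, and Spi1 came next (55.5 ± 16.5 TPM), with a range below that of Maf and above that of the next gene. The genes from Cebpb to Bhlhe41 in the aged order (36.4, 19.3, 16.1, 11.5 and 8.77 TPM on average for Cebpb, Irf8, Mef2a, Runx1 and Bhlhe41) overlapped with their neighbours, and the range of Cebpb lay below that of Maf. In the young order Mef2a, Cebpb and Bhlhe41 (19.1, 17.8 and 12.4 TPM) overlapped with their neighbours, as did Runx1 and Irf8 (6.84 and 6.65 TPM), and those groups of genes were separate. Cebpa was last at both ages, at 3.57 ± 1.85 TPM in aged and 1.31 ± 1.01 TPM in young libraries (SD, n = 3 each), below the range of the gene before it. Irf8 stood above Mef2a, Runx1 and Bhlhe41 by its mean in aged libraries and below them in young ones.

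**Figure D4:**
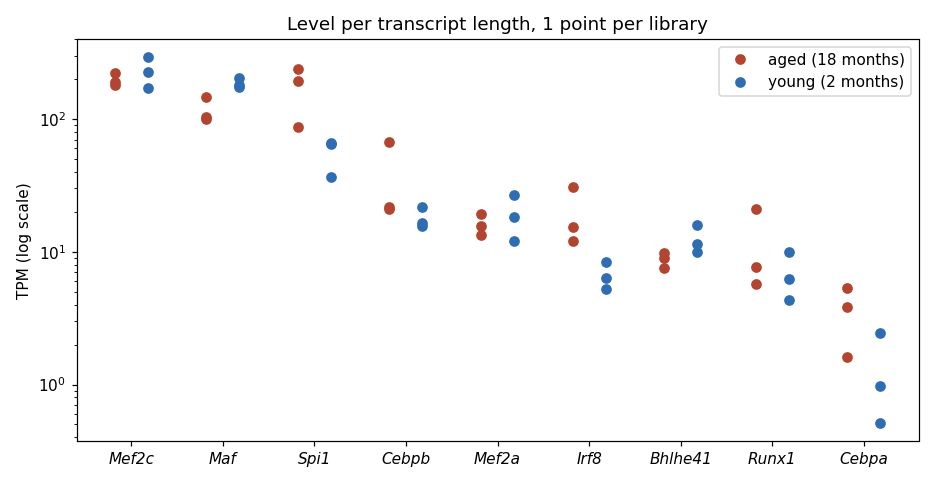
TPM on a log axis for the 9 genes, ordered by their mean over all 6 libraries, with 1 point per aged (left, red) and young (right, blue) library. Mef2c, Maf and Spi1 lie above the other 6 genes at their means, and Spi1 and Maf are close in aged libraries (173 and 116 TPM) and apart in young ones (55.5 and 185 TPM).

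The profiles most like each member over the 6 libraries were taken as the smallest root mean square difference of centred log2(CPM + 1), among genes at 50 CPM or more on average. Spi1 was nearest to Sp110 (0.24 log2 units) and Atp6v1c1 (0.27), and Irf8 to Hsp90ab1 (0.16) and Bax (0.22). For Maf they were Lst1 (0.081) and Cltc (0.14), and for Bhlhe41 Blvrb (0.12) and Ethe1 (0.13). Mef2a was nearest to the mitochondrial transcripts mt-Nd5 and mt-Nd6 (both 0.12), Mef2c to Tmed7 (0.072) and Eif3k (0.081), and Runx1 to Ms4a6d and Ccl12 (both 0.15). Lst1 was at 1135, 501 and 817 CPM in aged libraries and at 1553, 1755 and 1558 CPM in young ones, lowest in aged replicate 2 as Maf was.

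Relatives of the 9 factors and other macrophage transcription factors were taken from lists of family members, cofactors and lineage regulators. Of 113 such genes 91 were measured, and 0 of them were called in either direction by edgeR over all genes, with 6 at an unadjusted p under 0.05. At that threshold edgeR put 3.63% of all genes tested higher and 2.04% lower. Without overlap between the ages, 11 were higher and 6 lower, which is 12.1% and 6.59%, against 7.54% and 7.19% of all genes tested. The median log2 fold change was 0.19, against -0.02 over all genes tested. Most were low, with 76 of the 91 under a mean of 50 CPM.

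Of the ETS relatives of PU.1, 13 of 14 were measured (median log2 fold change -0.09). Fli1, which also acts in endothelium and megakaryocytes, was at 131 ± 46.3 CPM in aged and 177 ± 38.6 CPM in young libraries (SD, n = 3 each). Ets2 was at 3.11 ± 0.97 CPM in aged and 22.9 ± 14.2 CPM in young libraries, without overlap, at low counts. In the IRF family, 11 of 12 genes were measured (median 1.07). Irf1, an early interferon target, was at 22.2, 113 and 85.1 CPM in aged libraries, against 22.6, 12.2 and 28.5 CPM in young ones, so aged replicate 1 lay within the young range. Irf2bp2, a corepressor of IRF2, was at 58.6, 64.9 and 41.7 CPM in aged libraries and at 83.6, 154 and 96.6 CPM in young ones. Batf3, a partner of IRF factors in dendritic cells, was at 22.4, 15.9 and 23.2 CPM in aged libraries. It was at 0, 0.484 and 0 CPM in young libraries (edgeR adjusted p = 0.691), and the DESeq2 Wald test called it (adjusted p = 0.0027).

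Among MAF relatives, 5 of 9 were measured (median 0.32). The antioxidant regulator Nfe2l2, whose product pairs with small MAF proteins, was at 265 ± 32.3 CPM in aged and 213 ± 57.2 CPM in young libraries (SD, n = 3 each). Of Mef2b, Mef2d and the class IIa deacetylases that hold MEF2 in check, 4 of 6 were measured (median 0.31), and all were low. Hdac4 was at 20.7 ± 15.6 CPM in aged and 5.20 ± 0.92 CPM in young libraries. All 6 C/EBP relatives were measured (median 0.40). Cebpd, an acute-phase member, was at 54.0, 76.6 and 49.2 CPM in aged libraries, above 22.8, 41.5 and 19.9 CPM in young ones, and Ddit3, a stress-induced partner, was at 34.1 ± 9.81 and 59.6 ± 42.2 CPM in aged and young libraries. Of the RUNX partners 5 of 7 were measured (median 2.18 at low levels). Cbfb, the subunit that RUNX1 needs, was at 21.2 ± 12.3 CPM in aged and 27.3 ± 12.9 CPM in young libraries.

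Clock genes and Bhlhe40, the closest relative of Bhlhe41, were low, with 11 of 16 measured (median 0.49). Bhlhe40 was at 6.27 ± 7.45 CPM in aged and 1.35 ± 1.05 CPM in young libraries (SD, n = 3 each). Cry2 was at 2.32 ± 1.25 CPM in aged and 0.0889 ± 0.0969 CPM in young libraries. Tef was at 11.7 ± 6.74 CPM in aged and 1.14 ± 0.511 CPM in young libraries. Both were without overlap in CPM. The mean TPM of Tef, in contrast, was nearly equal at both ages and slightly lower in aged libraries. Of 43 other macrophage factors 36 were measured (median 0.14). Klf6, a zinc finger factor of activated macrophages, was at 86.1, 150.2 and 99.3 CPM in aged libraries, against 50.6, 50.6 and 51.3 CPM in young ones (log2 fold change 1.14, SE 0.43, edgeR adjusted p = 0.775). Ikzf1, the lymphoid and myeloid factor Ikaros, was at 79.1 ± 18.0 CPM in aged and 39.3 ± 14.9 CPM in young libraries, also without overlap. Id2 (101 ± 14.7 and 76.3 ± 55.6 CPM in aged and young libraries) and Zeb2 (101 ± 49.5 and 110 ± 7.75 CPM) overlapped. Sall1, which marks microglia, was at 105, 40.5 and 61.9 CPM in aged and 46.7, 20.2 and 40.7 CPM in young libraries.

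**Figure D5:**
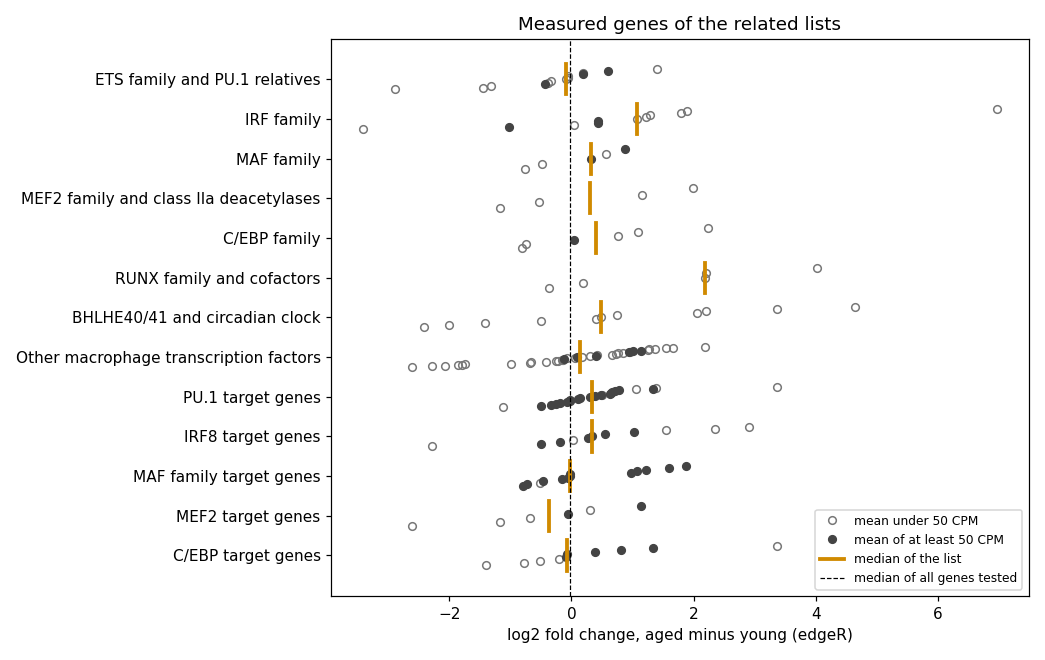
Log2 fold change, aged minus young (horizontal axis, edgeR), of every measured gene in the lists of relatives and of target genes, 1 point per gene, filled at 50 CPM or more on average and open below. Orange bars mark the median of each list and the dashed line that of all genes tested (-0.02), and the widest values belong to open points.

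Genes known to be regulated by the members, including some that are repressed, were taken from lists of textbook targets, some of them on 2 lists. Of 64 such genes 57 were measured, and 0 were called by edgeR over all genes, with 11 at an unadjusted p under 0.05. Without overlap between the ages, 14 (24.6%) were higher and 3 (5.26%) lower, and the median log2 fold change was 0.14. The share with aged higher was above the 7.54% of all genes tested and the 11.2% of genes at 50 CPM or more on average. The share with aged lower was below the 7.19% and 8.45% of those sets. The lists of targets and of relatives were chosen with earlier results of these data known, so these shares describe them and test nothing. Some of the target genes are also abundant in microglia, whose markers were higher in the aged libraries, and the part of that shift was not tested.

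All 24 PU.1 targets were measured (median 0.34), and 7 were higher without overlap and 1, Csf2rb, lower. Over all genes tested 7.54% were higher and 7.19% lower in this way, and 11.2% and 8.45% at 50 CPM or more. These shares also apply to the counts of the other target lists, which rest on fewer genes. Cd14, the endotoxin co-receptor gene, was at 248, 587 and 415 CPM in aged libraries, against 133, 166 and 199 CPM in young ones (log2 fold change 1.33, SE 0.38, edgeR adjusted p = 0.619). Cd68, a lysosomal marker of macrophages, was at 1245 ± 377 CPM in aged and 727 ± 94.2 CPM in young libraries (SD, n = 3 each). Csf1r, the classical PU.1 target, was at 1212 ± 150.3 CPM in aged and 1273 ± 262 CPM in young libraries (log2 fold change -0.07, SE 0.29). The signalling adaptors Fcer1g (-0.33, SE 0.30) and Tyrobp (-0.25, SE 0.32) also lay near 0. Csf3r, on the PU.1, C/EBP and neutrophil lists, was at 25.1, 45.9 and 19.2 CPM in aged libraries, against 5.96, 1.38 and 1.43 CPM in young ones (edgeR adjusted p = 0.744), and the DESeq2 Wald test called it (adjusted p = 0.0483). Aged replicate 3 was at 19.2 CPM, and its neutrophil markers, Csf3r included, summed to 25.8 CPM.

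Of the IRF8 targets 11 of 13 were measured (median 0.34), and 2 were higher without overlap. Cxcl16, a membrane-bound chemokine gene, was at 187, 176 and 163 CPM in aged libraries, against 91.1, 132 and 37.1 CPM in young ones. Bcl2, a survival gene that IRF8 represses, was at 13.4 ± 7.43 CPM in aged and 1.78 ± 1.55 CPM in young libraries (SD, n = 3 each). Asah1, the acid ceramidase gene that IRF8 also represses, was at 1260.2 ± 392 and 859 ± 143 CPM in aged and young libraries. Of the genes listed as targets of the MAF family, 13 of 14 were measured (median -0.02). They split into both directions, with 4 higher and 2 lower without overlap.

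C1qa, which encodes a complement chain, was at 994, 4679.6 and 2420.1 CPM in aged libraries, against 764, 899 and 550.2 CPM in young ones (log2 fold change 1.87, SE 0.51, edgeR adjusted p = 0.619). C1qb was at 7858 ± 3561 CPM in aged and 3376 ± 590.2 CPM in young libraries (SD, n = 3 each). Axl, a receptor for dying cells, was at 133, 78.8 and 98.1 CPM in aged libraries, against 30.0, 41.1 and 31.0 CPM in young ones (log2 fold change 1.60, SE 0.47, edgeR adjusted p = 0.619). Timd4, a receptor gene for dying cells, was also higher without overlap, at 168 ± 47.6 CPM in aged and 84.8 ± 33.6 CPM in young libraries. C1qa was called by the DESeq2 Wald test (adjusted p = 0.0162), and all 3 C1q genes by edgeR with no low-count filter. The 2 lower genes were markers of mature border macrophages, Mrc1 (1611 ± 639 CPM in aged and 2795 ± 135 CPM in young libraries) and Lyve1 (172 ± 66.4 and 283 ± 40.0 CPM). Mrc1 encodes the CD206 used in the sort.

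All 6 MEF2 targets were measured (median -0.36), and Klf6 alone did not overlap between ages. Tgfbr2, a receptor gene for TGF-beta, was at 205 ± 69.8 CPM in aged and 212 ± 52.8 CPM in young libraries (SD, n = 3 each). Of the C/EBP targets 10 of 14 were measured (median -0.08), with Cd14 and Csf3r higher without overlap. Lyz2, the lysozyme gene, was at 22059 ± 4212 CPM in aged and 16937 ± 2098 CPM in young libraries. The inflammatory genes Il6 (-0.21, SE 2.02), Tnf (-0.78, SE 2.00) and Il1b (-1.40, SE 2.70) were low, with standard errors larger than their log2 fold changes.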

How the data were processed

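Sorted brain macrophages were profiled with a low-input template-switching kit that does not mark strand. Per the submitters' processing notes, the tools included DRAGEN, fastp, Picard, FastQC and bcl2fastq 2.20, and the build was mm10. The annotation release and each tool's role were not given in the sources used here. Per the file headers, the authors deposited an estimated count per gene, TPM scaled for depth and effective length, and the gene's length in each library (another value, in bases).

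Counts were rounded to whole numbers. Symbols came from GENCODE M21 (35513 of 35598 identifiers matched without version). The test was edgeR 4.0.16 (R 4.3.3), with filterByExpr by group, TMM, a robust quasi-likelihood F test of aged against young libraries, and Benjamini-Hochberg adjustment over 10661 genes. Fold changes are aged minus young. Standard errors were worked back from the F statistic. Levels are TMM-normalized CPM (mean ± SD, n = 3 per age). Ratios used log2(TPM + 1) with two-sided exact permutation tests, for which 3 against 3 libraries can give no p under 0.1. Of 4 ratios computed, 3 are given, and some other results are not reported here. Adjusted over the 4, their p-values were 0.933 or 1. The fit was tested on simulated data, with changes larger than any member's fitted fold and only in genes at 50 CPM or more. Its power at the members' folds was not examined. The alternatives included DESeq2 1.42.0 and limma 3.58.1.

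The members and lists were chosen with earlier results of these data known. Named genes were the members and, for each list of relatives or targets, genes drawn from the 3 with the smallest p and the 2 with the highest TPM, with Csf2rb, Bhlhe40, Lyve1, Mrc1, Timd4, Sall1, Il6, Tnf and Il1b added after their values were seen. For each member at 50 CPM or more, the 2 genes with the most similar profile were also named. By gene spans, Cebpb was the 1 member that a tested gene on the opposite strand overlapped.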

Additional observations from a re-analysis of the deposited data

How the results depend on the processing

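No member was called under any of the 16 alternatives, of which limma-trend on log2(TPM + 1) was chosen after seeing the data, and no member's log2 fold change changed sign. The lowest adjusted p-values were 0.121 for Spi1 and for Maf and 0.281 for Irf8, all where only genes averaging 50 CPM or more were tested. Limma-trend on TPM put the median of all genes tested at 0.22, against -0.02 in edgeR, and Maf at -0.69, so values of the 2 scales are read against those medians. Across all genes, edgeR called 1 gene higher and 0 lower. The DESeq2 Wald test called 117 higher and 41 lower, edgeR without a filter 51 and 11, and edgeR on genes averaging 50 CPM or more 19 and 6. Limma-voom called 0 in either direction, without and with quality weights (936 and 954 genes at an unadjusted p under 0.05). Leaving out single libraries gave 0 to 2 higher (0 without aged replicate 2 or 3, 2 without young replicate 3) and 0 to 1 lower (1 without aged replicate 1). Scaling by DESeq2 size factors or by library totals kept 3 members higher and 2 lower without overlap. In TPM, Cebpb overlapped between the ages.

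The aged minus young difference in the log2 ratio of Mef2a to Mef2c (0.015) was -0.096 on counts and lay between -0.26 and 0.47 without single libraries. That of Cebpa to Cebpb (0.19) lay between -0.36 and 0.65, and that of Irf8 to Spi1 (-0.23) between -0.56 and 0.18. The cause was not tested. With a replicate block, 1 gene was called higher and 0 lower, and 0 members. Deviations of libraries with the same number correlated at -0.0074, 0.04 and 0.099, and those with different numbers at -0.13 to 0.097. With 3 libraries per age these values cannot settle whether the numbers pair the libraries.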

Other observations

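The deposited length of a gene varies between libraries for genes with several transcripts. For Runx1, which has a distal and a proximal promoter, it was 5637, 2104 and 3720.0 bases in aged libraries and 2080.0, 2968 and 4956 bases in young ones, a 2.71-fold range that did not follow age. For Mef2a the range was 1.53-fold, from 3453 to 5276 bases. Mef2c was given as 1494, 1701 and 1429 bases in aged libraries, longer than the 1371, 1244 and 1294 bases in young libraries in each case. The length of Maf was 5811, 5653 and 5266 bases in aged libraries, shorter than the 6175, 5967 and 6024 bases in young ones. TPM is scaled by the effective length and not by these values, and CPM by neither. The error of the lengths was not given in the sources used here. For Cebpb, a gene without introns, the length was 1504 bases in every library.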
